A study of Homo sapiens with 30 samples.

Results

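The 40 genes described here are genes of B cells. Of these, 14 encode surface receptors, 11 encode kinases, adaptors, phosphatases and other proteins that act behind the B cell receptor, and 15 encode transcription factors. They were taken from a given list of symbols, and each was found by its Ensembl ID among the 57992 genes of the deposited table. RNA-Seq was performed on 30 libraries, with 3 replicates in each of 10 groups. Ramos, an established Burkitt lymphoma line with a MYC translocation, was untreated or treated with Omomyc at 500 nM or 2.5 μM for 6 or 24 h. HCT116, an established colon carcinoma line in which MYC is stabilized, was untreated or treated at 2 μM (as titled) or 10 μM for 6 or 24 h with ProteoJuice, a reagent that carries protein into cells. Whether the untreated HCT116 cells received ProteoJuice is not stated, so in this line Omomyc and the reagent cannot be told apart. Omomyc is a miniprotein derived from MYC that pairs with MAX and binds E boxes, the short DNA sites of MYC and MAX. Each line had a single untreated group to which no time was assigned, so the 6 h and 24 h groups of a line were compared with the same 3 libraries. Time in culture and handling therefore cannot be told apart from the treatment or its length. No delivery reagent was described for the Ramos libraries, so an effect of the line cannot be told apart from one of the reagent. The labels do not say that replicates were separate cultures, so p-values measure the spread between these libraries, which may be technical.

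As background, the B cell receptor is a membrane immunoglobulin that signals through its partner chains, CD79A and CD79B. Src family kinases such as LYN and BLK phosphorylate these chains, SYK docks on them, and the adaptor BLNK, BTK and PLCG2 pass the signal on, while CD22 and the phosphatases PTPN6 and INPP5D restrain it. EBF1, TCF3 and PAX5 establish the B cell program, POU2F2, POU2AF1 and SPIB maintain it in mature cells, BCL6 and MEF2B act in germinal center B cells, the stage that Burkitt lymphoma resembles, and PRDM1 drives plasma cell differentiation.

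Levels are given as RPKM as deposited, that is reads scaled by the length of the gene and by the size of the library, which allows a comparison between genes per length. The read depth behind them is unknown. In untreated Ramos cells 39 of the 40 genes had a mean of at least 0.5 RPKM, 33 had a mean of at least 10 RPKM, and the median over the genes was 47.0 RPKM. CD79A stood at 386, 363 and 405 RPKM in the 3 libraries, CD79B at 348, 374 and 405, CD22 at 345, 362 and 319 and MS4A1, which encodes CD20, at 291, 292 and 265. These 4 receptor genes were the highest of the list, and the ranges of CD79A and CD79B overlapped. The lowest detected genes were PRDM1, at 1.16, 0.910 and 1.09 RPKM, TNFRSF13B, the receptor TACI, at 3.46, 3.64 and 2.77, and CD24, a glycoprotein of immature B cells, at 4.94, 4.54 and 4.07. CR2, the complement receptor CD21, was near 0 at 0.0977, 0.0489 and 0.0788 RPKM.

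**Figure D1:**
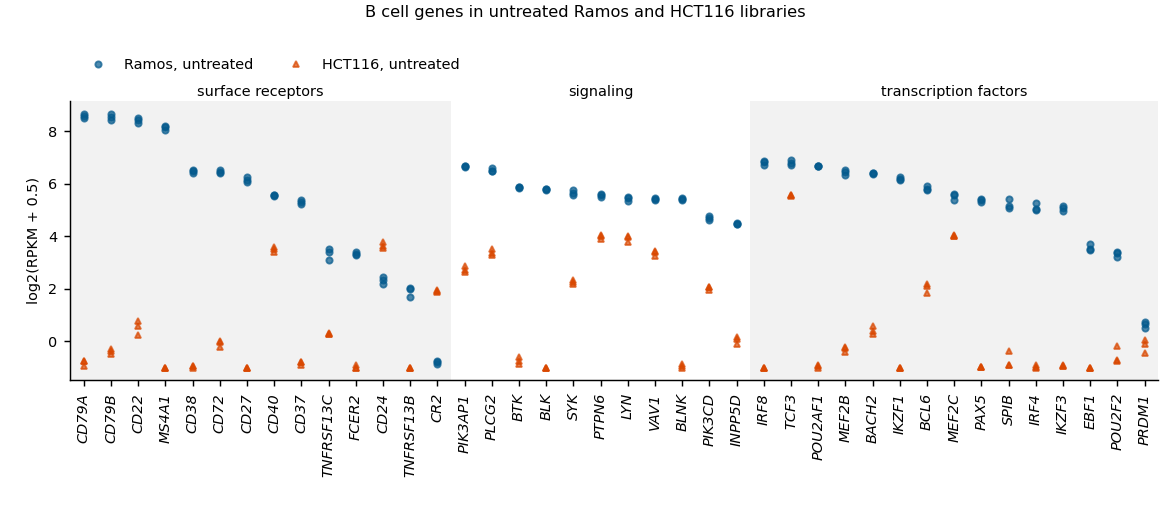
Levels of the 40 genes in the 3 untreated libraries of each line, as log2(RPKM + 0.5), with genes ordered within each class by their mean in Ramos cells (circles, Ramos; triangles, HCT116). CD24 and CR2 lie lower in Ramos than in HCT116 libraries, and the other 38 of the 40 genes lie higher. By limma's test 84.6% of all 15647 genes tested differed between the lines (39.0% higher and 45.7% lower in Ramos cells).

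The 2 lines were separated by nearly all of these genes. In untreated HCT116 cells 17 of the 40 genes reached a mean of 0.5 RPKM, the median was 0.296 RPKM, and 7 genes (MS4A1, CD27, BLK, EBF1, IRF8, IKZF1 and TNFRSF13B) were listed at 0 in all 3 libraries. By limma's moderated test with Benjamini-Hochberg adjustment over 15647 genes (threshold, adjusted p under 0.05), 38 of the 40 genes were higher in Ramos cells and 2 were lower. The list is of B cell genes, so this direction was largely set by its choice. The 23 genes with a mean under 0.5 RPKM in HCT116 cells were tested through their level in Ramos cells. CR2 was tested through its level in HCT116 cells. Of all genes tested 84.6% differed between the lines (39.0% higher and 45.7% lower in Ramos cells). CD24 was lower in Ramos cells by 1.33 on the log2 scale (SE 0.0899, adjusted p = 5.95e-06), with 11.4, 11.9 and 13.2 RPKM in HCT116 cells, and CR2 was lower as well, with 3.25, 3.16 and 3.42 RPKM in HCT116 cells. The genes of the list with the highest levels in HCT116 cells were TCF3, at 46.8 ± 0.833 RPKM (SD, n = 3), MEF2C, at 15.7 ± 0.227, PTPN6, at 15.4 ± 0.974, LYN, at 14.7 ± 1.24, CD24, at 12.1 ± 0.963, and CD40, at 10.9 ± 0.695. These genes are not restricted to B cells in the 2 lines.

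The labels were checked with marker genes of 4 cell types. The summed level of 6 B cell markers was 1498 to 1672 RPKM over the 15 Ramos libraries and 0.737 to 3.08 RPKM over the 15 HCT116 libraries. The summed level of 8 epithelial markers was 1418 to 2234 RPKM in HCT116 cells and at most 1.74 RPKM in Ramos cells. The 8 T and NK cell markers and 6 myeloid markers summed to at most 1.47 and 0.378 RPKM in any Ramos library. Replicate libraries of a group had correlations of 0.973 to 0.996 on the log scale, and no pair held identical values. In 1 group a library stood apart. Replicate 3 of HCT116 at 10 μM for 6 h correlated at 0.977 and 0.973 with its replicates, and its RPKM summed to 1051041, against 791845 and 795720. The summed RPKM of a Ramos library was highest in untreated cells (879661 to 973736) and lowest at 2.5 μM for 24 h (783788 to 828045).

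The first question was how the B cell genes changed within 6 h of Omomyc. At 500 nM 24 of the 39 genes tested passed the threshold against untreated cells, 13 higher and 11 lower, where 23.6% of the 13614 genes tested passed it (13.8% higher, 9.73% lower). At 2.5 μM 24 of 39 passed, 12 higher and 12 lower, where 27.9% of 13595 genes passed (17.3% higher, 10.7% lower). The members called were a larger share (61.5% at either dose) than among all genes. The list was chosen with earlier results of these data known. In untreated cells 33 of its 40 genes had a mean of at least 10 RPKM. No comparison was made with genes of like level, so a larger share is not a test of the list, here or below. The members' median log2 fold change was -0.10 at 500 nM and -0.07 at 2.5 μM, against 0.02 and 0.03 over all genes tested. CR2 was the gene not tested, since its mean was under 0.5 RPKM. Fold changes are differences of log2(RPKM + 0.5), which understates changes at low levels. In bulk RNA, fewer cells of a kind and less RNA per cell cannot be told apart. The split of directions moved with the scale. Scaling each library to an equal sum of RPKM put the median of all genes at 0.11 at 500 nM and 0.16 at 2.5 μM on the log2 scale. It gave 13 higher and 4 lower genes at 500 nM and 14 higher and 8 lower at 2.5 μM. Of all genes it called 2834 at 500 nM (79.8% of them higher) and 4675 at 2.5 μM (85.2% of them higher). Scaling by median ratios gave 9 higher and 15 lower at 2.5 μM, beside 3674 of all genes called (51.5% of them higher).

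**Figure D2:**
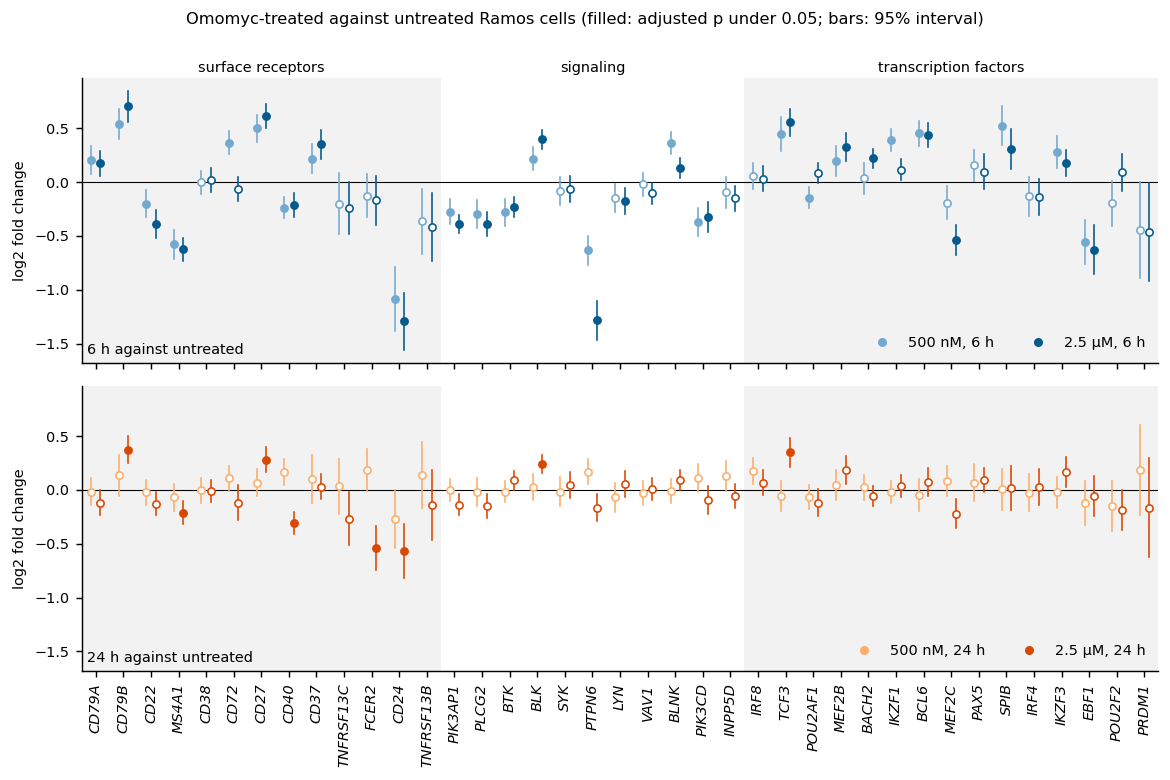
Log2 fold change of the 39 tested genes in Ramos cells at 6 h (upper panel) and 24 h (lower panel) of 500 nM or 2.5 μM Omomyc against the same 3 untreated libraries, with 95% intervals. Filled points have an adjusted p under 0.05. At 6 h these are 24 genes at 500 nM and 24, not all the same, at 2.5 μM, beside 23.6% and 27.9% of all genes tested. At 24 h they are none at 500 nM and 8 at 2.5 μM, beside 0.0146% and 4.61% of all genes tested.

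Among the surface receptors, the signaling chain CD79B and the TNF receptor CD27 rose and the CD20 gene MS4A1 and CD24 fell, at both doses. CD79B was at 348, 374 and 405 RPKM in untreated libraries, 541, 564 and 531 at 500 nM and 635, 624 and 575 at 2.5 μM. Its log2 fold change was 0.54 (SE 0.0607, adjusted p = 0.000490) at 500 nM and 0.70 (SE 0.0628, adjusted p = 0.000150) at 2.5 μM, and neither treated group overlapped the untreated one. Its partner chain CD79A rose less, from 386, 363 and 405 RPKM to 448, 419.8 and 461 at 500 nM and 442, 446 and 415 at 2.5 μM, with log2 fold changes of 0.21 (adjusted p = 0.0297) and 0.18 (adjusted p = 0.0320). The groups did not overlap, but the call at 500 nM was lost without untreated replicate 1 or 2 or treated replicate 1 or 3 (adjusted p = 0.0699 to 0.108). That at 2.5 μM was lost without untreated replicate 1 or 2 or treated replicate 1 or 2 (adjusted p = 0.0695 to 0.118) and did not pass by median ratios (adjusted p = 0.0716). The ratio of the RPKM of CD79B to that of CD79A was 0.901 to 1.03 in untreated libraries, 1.15 to 1.34 at 500 nM and 1.38 to 1.44 at 2.5 μM. The 2 chains were near equal in level per length before treatment, and CD79B was above CD79A in every treated library at 6 h. An annotated gene, AC127029.3, overlaps CD79B on the same strand, and reads of the pair could be split between them.

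MS4A1 was at 291, 292 and 265 RPKM in untreated libraries, 202, 181 and 184 at 500 nM and 182, 189 and 178 at 2.5 μM. Both treated groups lay below the untreated group, and their own ranges overlapped. The log2 fold changes of MS4A1 were -0.58 (SE 0.0590, adjusted p = 0.000323) and -0.62 (SE 0.0484, adjusted p = 8.34e-05). CD24 went from 4.94, 4.54 and 4.07 RPKM to 2.17, 1.70 and 1.74 at 500 nM and 1.45, 1.57 and 1.61 at 2.5 μM. This was the largest fall of the list at either dose, by 1.08 and 1.29 on the log2 scale (SE 0.13 and 0.12, adjusted p = 0.000651 and 0.000152). CD24 has related pseudogenes whose reads can be counted with it. CD27, a receptor of memory and germinal center B cells, went from 67.6, 71.2 and 75.9 RPKM to 96.8, 103 and 104 at 500 nM and 111, 107 and 111 at 2.5 μM. All treated libraries lay above the untreated ones, with log2 fold changes of 0.50 (adjusted p = 0.000447) and 0.61 (adjusted p = 9.52e-05). TAPBPL overlaps CD27 on the same strand.

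The inhibitory coreceptor CD22 fell by 0.20 on the log2 scale at 500 nM (adjusted p = 0.0287) and by 0.39 at 2.5 μM (adjusted p = 0.00150), from 342 ± 21.5 RPKM (SD, n = 3) to 297 ± 9.44 and 260.3 ± 12.8. The call at 500 nM was lost without untreated replicate 1 or 2 or treated replicate 2 or 3 (adjusted p = 0.0779 to 0.104) and did not pass with an equal sum of RPKM (adjusted p = 0.353). CD40, the receptor for T cell help, fell by 0.24 and 0.21 (adjusted p = 0.00544 and 0.0143), and neither call held with an equal sum of RPKM (adjusted p = 0.251 and 0.460). The call of CD40 at 2.5 μM was also lost without treated replicate 1 or 3 (adjusted p = 0.0508 to 0.0551). CD37, a tetraspanin of B cells, rose by 0.22 and 0.35 (adjusted p = 0.0300 and 0.00340). Its call at 500 nM was lost without untreated replicate 2 or 3 or treated replicate 1 or 3 (adjusted p = 0.0611 to 0.111). CD72, another inhibitory coreceptor, rose at 500 nM, by 0.37 (adjusted p = 0.000910), and was at -0.06 at 2.5 μM (adjusted p = 0.371). The ectoenzyme CD38 had log2 fold changes of -0.0031 and 0.02, the nearest to 0 of the receptors, with 95% intervals of -0.11 to 0.10 and -0.09 to 0.13. The BAFF system receptors TNFRSF13B and TNFRSF13C and the IgE receptor FCER2 did not pass at either dose, with log2 fold changes of -0.42, -0.24 and -0.17 at 2.5 μM (adjusted p = 0.0522, 0.132 and 0.248).

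**Figure D3:**
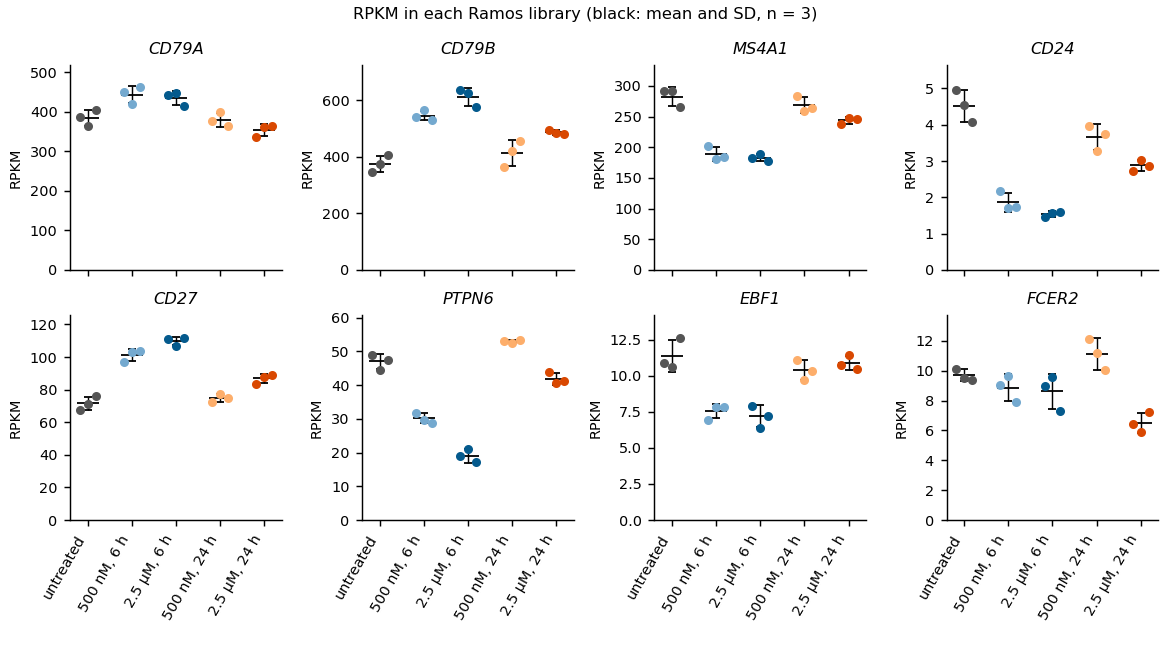
RPKM of 8 of the genes in each of the 15 Ramos libraries, with the mean and SD of each group in black and every axis starting at 0. CD79B and CD27 are higher and MS4A1, CD24, PTPN6 and EBF1 lower in every 6 h library than in any untreated one, while FCER2 is lowest at 2.5 μM for 24 h.

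Among the 11 signaling genes, 7 passed at 500 nM (2 higher, 5 lower) and 8 at 2.5 μM (2 higher, 6 lower), with medians of -0.15 and -0.18 on the log2 scale, beside 23.6% and 27.9% of all genes tested. PTPN6, the phosphatase SHP-1 that is recruited by CD22 and CD72, was at 49.1, 44.5 and 47.5 RPKM in untreated libraries, 31.7, 29.8 and 28.9 at 500 nM and 19.0, 21.2 and 17.1 at 2.5 μM. The 3 groups did not overlap, and the level was lower at the higher dose. PTPN6 fell by 0.63 on the log2 scale at 500 nM (SE 0.0587, adjusted p = 0.000212) and by 1.28 at 2.5 μM (SE 0.0787, adjusted p = 3.24e-05), the latter a 2.43-fold lower level. The second messenger enzymes fell as well. PLCG2, the phospholipase that produces the calcium signal, went from 91.5 ± 4.05 RPKM (SD, n = 3) to 74.4 ± 4.43 and 69.7 ± 2.97, with log2 fold changes of -0.30 and -0.39 (adjusted p = 0.00607 and 0.000786). PIK3CD, the leukocyte PI 3-kinase subunit, went from 25.3 ± 1.25 RPKM to 19.4 ± 0.333 and 20.2 ± 0.994 (-0.37 and -0.32, adjusted p = 0.00229 and 0.00493). Its adaptor PIK3AP1 went from 101 ± 2.24 to 83.6 ± 5.08 and 77.0 ± 0.887 (-0.27 and -0.39, adjusted p = 0.00683 and 0.000215). In all 3 genes every treated library lay below every untreated one.

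The kinases did not move as a block. BTK fell by 0.28 and 0.23 on the log2 scale (adjusted p = 0.00759 and 0.00393). BLK, a Src family kinase of B cells, rose by 0.22 and 0.40 (adjusted p = 0.00996 and 0.000240), and its call at 500 nM was lost without treated replicate 2 (adjusted p = 0.0534). BLK was at 54.8, 54.0 and 55.0 RPKM in untreated libraries and 71.2, 74.2 and 70.8 at 2.5 μM. LYN fell at 2.5 μM, by 0.18 (adjusted p = 0.0345), a call lost without untreated replicate 1 or 3 or treated replicate 1, 2 or 3 (adjusted p = 0.0820 to 0.103). At 500 nM LYN was at -0.15 (adjusted p = 0.0890). The adaptor BLNK rose at 500 nM by 0.36 (adjusted p = 0.000809) and at 2.5 μM by 0.14 (adjusted p = 0.0379). The latter call was lost without untreated replicate 1 or 3 or treated replicate 1, 2 or 3 (adjusted p = 0.0657 to 0.122). By median ratios BLNK at 2.5 μM, at 0.098, did not pass (adjusted p = 0.120). SYK, VAV1, an exchange factor for Rac, and the lipid phosphatase INPP5D passed at neither dose, with log2 fold changes between -0.15 and -0.07 at 2.5 μM and a lowest adjusted p of 0.0521. With an equal sum of RPKM the falls of PLCG2 and PIK3AP1 at 500 nM and of PIK3CD and BTK at both doses no longer passed, with adjusted p of 0.0505 to 0.304, nor did that of LYN at 2.5 μM (adjusted p = 0.741). All kept their sign.

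Omomyc binds E boxes, and the promoters of the called genes with the largest change at 2.5 μM and 6 h are shown for that reason. They are RefSeq windows on GRCh38.p14 of the 250 bases before an annotated start, 5′ to 3′ on the gene's strand. Capitals mark CACGTG, the E box of MYC and MAX, CAGGTG, a site of E proteins such as TCF3, and ATGCAAAT, the octamer of POU2F2. CAGGTG is read as CACCTG on the other strand. In the study's in vitro assay, Omomyc bound a VEGFA probe that holds CACCTG about as strongly as the E box probe. Binding of Omomyc to the windows shown was not tested. The first of 2 windows of PTPN6 (chr12:6946327-6946576, plus strand) holds CAGGTG at 3 places, and its other window holds none of the motifs. The most upstream of 3 windows of CD24 (chr6:106975628-106975877, minus strand) holds none of the motifs. Another window of CD24 holds CAGGTG at its outer end, 249 bases before its start. PIK3AP1 (chr10:96720515-96720764, minus strand) and MEF2B (chr19:19170264-19170513, minus strand) were added because their windows hold CACGTG and the octamer.
PTPN6: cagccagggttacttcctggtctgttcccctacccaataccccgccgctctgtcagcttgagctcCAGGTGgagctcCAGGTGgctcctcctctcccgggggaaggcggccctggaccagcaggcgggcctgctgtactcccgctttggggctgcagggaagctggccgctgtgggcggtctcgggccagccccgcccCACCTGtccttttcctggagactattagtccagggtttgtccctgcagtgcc
CD24: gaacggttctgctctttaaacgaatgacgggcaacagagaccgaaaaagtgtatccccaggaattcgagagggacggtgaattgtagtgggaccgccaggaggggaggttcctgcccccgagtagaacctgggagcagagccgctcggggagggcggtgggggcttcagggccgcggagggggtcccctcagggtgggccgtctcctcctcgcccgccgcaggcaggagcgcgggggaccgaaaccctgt
PIK3AP1: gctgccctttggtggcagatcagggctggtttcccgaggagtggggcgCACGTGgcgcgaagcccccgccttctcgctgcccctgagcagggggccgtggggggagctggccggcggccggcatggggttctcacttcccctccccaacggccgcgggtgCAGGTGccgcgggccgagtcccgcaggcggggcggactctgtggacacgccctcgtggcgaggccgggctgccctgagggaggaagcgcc
MEF2B: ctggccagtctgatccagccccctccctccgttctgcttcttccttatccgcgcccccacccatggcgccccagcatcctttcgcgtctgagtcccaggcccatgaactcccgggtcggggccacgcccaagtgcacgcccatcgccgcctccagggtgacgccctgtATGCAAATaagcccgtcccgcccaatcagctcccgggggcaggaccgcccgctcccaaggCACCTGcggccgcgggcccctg

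CACGTG stands 202 bases before the start in PIK3AP1 and the octamer 82 bases before that of MEF2B. Promoter windows of 300 bases, which reach past the start, were searched and were found for 31 of the 40 genes (51 windows). The genes MS4A1, CD79B, CD37, CD40, LYN, BLK, POU2AF1, IKZF3 and TNFRSF13C had none. CACGTG was in 2 of the 51 windows (3.92%), of CR2 and PIK3AP1, against 7.26% of 35116 windows of all genes. CAGCTG, which like CACGTG reads the same on both strands, was in 9 of the 51 windows (17.65%, against 17.95% of all windows), CAGGTG in 19 (37.25%, against 20.59%) and the octamer in 2, of MEF2B and MEF2C (3.92%, against 1.77%). No motif of the 4 contains another, windows of 1 gene can overlap, and a match is a description of the sequence only.

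Of the 15 transcription factors, 8 passed at each dose at 6 h, 6 higher and 2 lower, beside 23.6% and 27.9% of all genes tested. TCF3, which encodes the E proteins E12 and E47, was at 110.1, 105 and 121 RPKM in untreated libraries, 141, 155 and 163 at 500 nM and 162, 166 and 166 at 2.5 μM. All treated libraries lay above the untreated ones, and the log2 fold changes were 0.45 (SE 0.0701, adjusted p = 0.00236) and 0.55 (SE 0.0548, adjusted p = 0.000224). EBF1, an early B cell factor, went the other way, from 10.9, 10.6 and 12.6 RPKM to 6.95, 7.84 and 7.86 at 500 nM and 7.92, 6.39 and 7.22 at 2.5 μM, with no overlap. It fell by 0.56 and 0.63 on the log2 scale (adjusted p = 0.00300 and 0.00228). PAX5, the third founder of the program, passed at neither dose, at 39.0, 41.3 and 43.0 RPKM in untreated libraries and 46.5, 46.2 and 39.5 at 2.5 μM (0.10, adjusted p = 0.344). Of the 3 factors, 1 was higher, 1 was lower and 1 was not called.

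BCL6, the repressor that defines germinal center B cells, rose by 0.45 and 0.44 (adjusted p = 0.000532 and 0.000425), from 56.5 ± 2.97 RPKM (SD, n = 3) to 77.5 ± 2.04 and 76.8 ± 2.17. MEF2B, an activator of BCL6, rose by 0.20 and 0.32 (adjusted p = 0.0460 and 0.00354). Its call at 500 nM was lost without untreated replicate 1 or 2 or treated replicate 2 or 3 (adjusted p = 0.0979 to 0.161). By median ratios MEF2B at 500 nM did not pass either (adjusted p = 0.0804). A readthrough gene, BORCS8-MEF2B, overlaps it. MEF2C, its relative, fell at 2.5 μM from 48.0, 46.7 and 41.5 RPKM to 30.3, 32.0 and 30.7, by 0.54 on the log2 scale (SE 0.0611, adjusted p = 0.000431), and at 500 nM was at -0.19 (adjusted p = 0.0674). The Ets factor SPIB rose by 0.52 and 0.30 (adjusted p = 0.00216 and 0.0243). The call at 2.5 μM was lost without untreated replicate 1 or 2 or treated replicate 1, 2 or 3 (adjusted p = 0.0571 to 0.0836). AC020909.1 overlaps SPIB on the same strand. The Ikaros genes IKZF1 and IKZF3 rose at 500 nM, by 0.39 and 0.28 (adjusted p = 0.000573 and 0.0142), and at 2.5 μM stood at 0.12 and 0.18 (adjusted p = 0.0835 and 0.0404). The call of IKZF3 at 2.5 μM was lost without untreated replicate 1 or 2 or treated replicate 1, 2 or 3 (adjusted p = 0.0677 to 0.128). By median ratios IKZF3 at 2.5 μM did not pass either (adjusted p = 0.0828).

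BACH2, a repressor of plasma cell differentiation, rose at 2.5 μM by 0.22 (adjusted p = 0.00393) and was at 0.04 at 500 nM. POU2AF1, the coactivator of the octamer factors, was 0.14 lower at 500 nM (adjusted p = 0.0400), a call lost without untreated replicate 1, 2 or 3 or treated replicate 2 or 3 (adjusted p = 0.0733 to 0.162). With an equal sum of RPKM the adjusted p was 0.706. At 2.5 μM it was at 0.09 (adjusted p = 0.155). Its partner POU2F2 passed at neither dose (-0.20 and 0.09). The interferon regulatory factors IRF4 and IRF8 did not pass either, with -0.14 and 0.03 at 2.5 μM and 95% intervals of -0.30 to 0.03 and -0.09 to 0.15. PRDM1, at 1.05 ± 0.129 RPKM (SD, n = 3) in untreated and 0.640 ± 0.245 RPKM at 2.5 μM, had the widest interval of the list (-0.92 to -0.004) and was not called.

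The 2 doses were then compared directly at 6 h. Of the 39 genes 5 differed, all lower at 2.5 μM, where 0.429% of 13511 genes differed (0.244% lower). PTPN6 was 0.65 lower on the log2 scale at 2.5 μM than at 500 nM (SE 0.0756, adjusted p = 0.0181), CD72 was 0.43 lower (adjusted p = 0.0119), MEF2C 0.35 (adjusted p = 0.0244), IKZF1 0.27 (adjusted p = 0.0244) and BLNK 0.23 (adjusted p = 0.0425). PTPN6 and MEF2C were below untreated cells at the higher dose. The level of CD72 went from 117, 112 and 111 RPKM at 500 nM to 85.9, 86.4 and 79.6 at 2.5 μM, beside 84.5, 87.6 and 91.2 in untreated libraries. CD72 was thus above untreated cells at 500 nM and not called at 2.5 μM. The count fell from 5 to 2 without replicate 1 at 500 nM or replicate 2 at 2.5 μM, to 1 without replicate 3 at 500 nM, and to 0 without replicate 2 at 500 nM or replicate 1 or 3 at 2.5 μM. The adjusted p of PTPN6 was at most 0.0959 without any of them. The differences of MEF2C, IKZF1 and BLNK were -0.30, -0.23 and -0.18 with an equal sum of RPKM and did not pass (adjusted p = 0.0962, 0.117 and 0.316). Among the genes that did not pass, CD79B was 0.16 higher (95% interval 0.06 to 0.27), CD24 at -0.21 (-0.50 to 0.08) and MS4A1 at -0.05 (-0.16 to 0.06).

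At 24 h the doses parted. At 500 nM none of the 39 genes passed the threshold in limma's test against untreated cells, where 2 of 13674 genes (0.0146%) passed, and none passed under any of the alternative settings tried. At an unadjusted p under 0.05 there were 4 of the 39 genes, where 5.58% of all genes tested were under it. Log2 fold changes ran from -0.27 for CD24 to 0.18 for FCER2, and all 11 signaling genes were between -0.07 and 0.17. PTPN6 was at 53.0, 52.4 and 53.4 RPKM, in every library above the untreated range of 49.1, 44.5 and 47.5 (0.17, adjusted p = 0.784). MS4A1 was at 284, 259 and 264 RPKM and CD79B at 365, 422 and 454, and in both genes the groups overlapped.

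At 2.5 μM for 24 h 8 of 39 genes passed, 4 higher and 4 lower, where 4.61% of 13607 genes passed (3.30% higher, 1.31% lower). The higher genes were CD79B (0.37, SE 0.0549, adjusted p = 0.0121), TCF3 (0.35, adjusted p = 0.0184), CD27 (0.28, adjusted p = 0.0246) and BLK (0.24, adjusted p = 0.0144). The lower genes were CD24 (-0.57, adjusted p = 0.0269), FCER2 (-0.54, SE 0.0895, adjusted p = 0.0166), CD40 (-0.31, adjusted p = 0.0130) and MS4A1 (-0.21, adjusted p = 0.0402). CD79B was at 495, 483 and 479.8 RPKM and CD27 at 83.6, 87.8 and 89.2, in each case above every untreated library, and TCF3 was at 136, 149.5 and 143 and BLK at 64.7, 64.6 and 64.6. FCER2, the low-affinity IgE receptor CD23, was at 6.44, 5.88 and 7.23 RPKM against 10.2, 9.54 and 9.39 in untreated libraries, and CD40 at 39.6, 36.5 and 37.5 against 47.2, 46.5 and 47.1, with no overlap in either. FCER2 was thus called at 24 h and not at 6 h. PTPN6, at 44.0, 40.6 and 41.1 RPKM, lay below the untreated libraries, and its difference of -0.16 did not pass (adjusted p = 0.118). The count of 8 changed with single libraries, to 12 without untreated replicate 3, to 5 without untreated replicate 1 or 2, to 1 without replicate 1 or 3 at 2.5 μM, and to 0 without replicate 2 at 2.5 μM, where adjusted p ran up to 0.142 for the genes lost. An equal sum of RPKM put the median of all genes at 0.24 in place of 0.05. Of the 39 genes 17 were then higher and 2 lower, beside 5362 of all genes called (97.4% of them higher). With this scaling MS4A1 and CD40 did not pass (adjusted p = 0.953 and 0.258). By median ratios 3 were higher and 6 lower, beside 346 of all genes called (43.4% of them higher). With median ratios CD27, at 0.22, did not pass (adjusted p = 0.0615).

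The direct comparison of 24 h with 6 h tested whether levels moved between the times, without the untreated libraries. With no untreated group assigned to either time, time in culture and handling cannot be told apart from the length of Omomyc treatment. At 500 nM 26 of 39 genes differed, 15 higher and 11 lower at 24 h, where 25.4% of 13611 genes differed (11.9% higher, 13.5% lower). At 2.5 μM 26 of 39 differed, 13 higher and 13 lower, where 23.0% of 13564 genes differed (12.7% higher, 10.4% lower). With an equal sum of RPKM the genes were 10 higher and 10 lower at 500 nM and 14 higher and 7 lower at 2.5 μM. Of all genes this scaling called 2438 at 500 nM (39.1% of them higher) and 3096 at 2.5 μM (77.0% of them higher). PTPN6 rose from 6 to 24 h by 0.80 at 500 nM (SE 0.0503, adjusted p = 2.97e-05) and 1.12 at 2.5 μM (SE 0.0724, adjusted p = 2.66e-05), the largest change of the list at 2.5 μM. CD24 rose by 0.81 and 0.73 (adjusted p = 0.00175 and 0.00176), MS4A1 by 0.51 and 0.41 (adjusted p = 0.000251 and 9.15e-05) and EBF1 by 0.43 and 0.57 (adjusted p = 0.00457 and 0.00149). CD79B fell by 0.40 and 0.33 (adjusted p = 0.00350 and 0.000715) and CD79A by 0.22 and 0.30 (adjusted p = 0.0133 and 0.00130), the call of CD79A at 500 nM being lost without 6 h replicate 3 (adjusted p = 0.0551). The ratio of CD79B to CD79A in RPKM was 0.971 to 1.25 at 500 nM and 1.32 to 1.47 at 2.5 μM for 24 h. CD27 fell by 0.43 and 0.33, BCL6 by 0.50 and 0.37 and SPIB by 0.52 and 0.29 (largest adjusted p of these, 0.00457). The signaling genes PLCG2, PIK3CD, PIK3AP1 and BTK were higher at 24 h at both doses, by 0.32 for BTK at 2.5 μM and 0.49 for PIK3CD at 500 nM (adjusted p = 0.000359 and 0.000188). With an equal sum of RPKM BTK at 500 nM, at 0.24, did not pass (adjusted p = 0.0668).

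**Figure D4:**
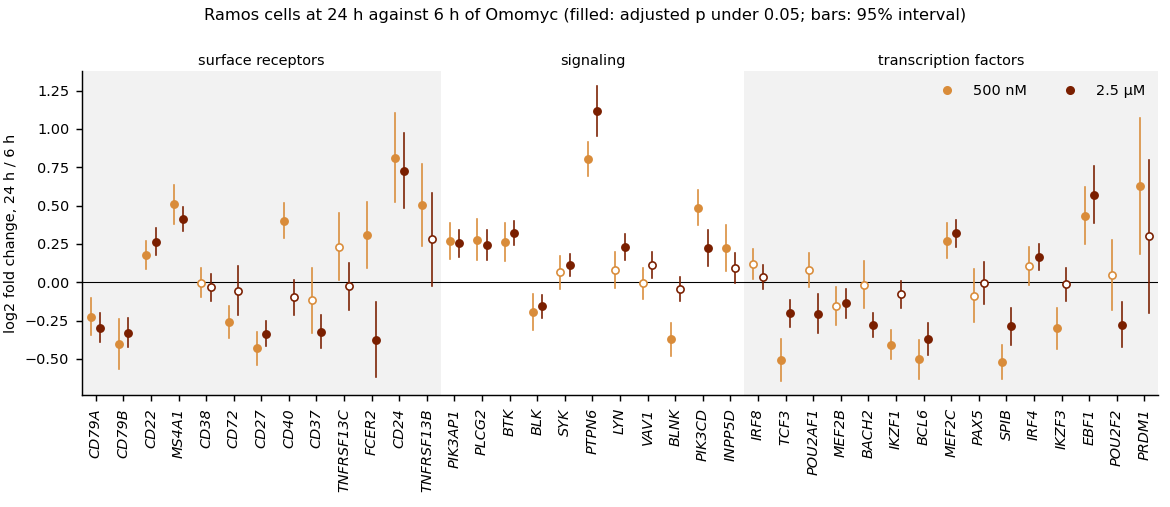
Log2 fold change between 24 h and 6 h of Omomyc at each dose in Ramos cells, with 95% intervals and filled points at an adjusted p under 0.05. PTPN6, CD24, MS4A1 and EBF1 are higher and CD79B, CD27, BCL6 and SPIB lower at 24 h at both doses, while FCER2 lies above 0 at 500 nM and below 0 at 2.5 μM.

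Some genes moved between the times at 500 nM and not, or in the other direction, at 2.5 μM. FCER2 rose by 0.31 at 500 nM (adjusted p = 0.0400) and fell by 0.37 at 2.5 μM (adjusted p = 0.0343). Its call at 500 nM was lost without 6 h replicate 1 or 3 or 24 h replicate 1 or 2 (adjusted p = 0.0677 to 0.135). That at 2.5 μM was lost without 6 h replicate 1 or 2 or 24 h replicate 1 or 2 (adjusted p = 0.0823 to 0.112), and neither passed with an equal sum of RPKM (adjusted p = 0.0866 and 0.0629). CD40 rose by 0.40 at 500 nM (adjusted p = 0.000520) and was at -0.10 at 2.5 μM (adjusted p = 0.190). IKZF1 and BLNK, which were above untreated cells at 500 nM for 6 h, fell by 0.41 and 0.37 at 500 nM (adjusted p = 0.000174 and 0.000522). The changes over time were not compared between doses in a single test, but the doses were compared at each time.

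At 24 h 8 of the 39 genes differed between 2.5 μM and 500 nM, 3 higher and 5 lower at 2.5 μM, where 4.25% of 13629 genes differed (2.39% higher, 1.86% lower). FCER2 was 0.73 lower on the log2 scale at 2.5 μM (SE 0.0967, adjusted p = 0.00549), with 12.1, 11.2 and 10.0 RPKM at 500 nM and 6.44, 5.88 and 7.23 at 2.5 μM. CD40 was 0.47 lower (SE 0.0528, adjusted p = 0.00267), with 51.9, 50.4 and 55.9 and 39.6, 36.5 and 37.5 RPKM. In both genes the doses lay on opposite sides of the untreated mean and did not overlap. PTPN6 was 0.33 lower (adjusted p = 0.00549), MEF2C 0.30 lower (adjusted p = 0.00729) and PIK3CD 0.21 lower (adjusted p = 0.0488). TCF3 was 0.41 higher (SE 0.0492, adjusted p = 0.00428), with 102, 113 and 108 RPKM at 500 nM and 136, 149.5 and 143 at 2.5 μM, BLK was 0.22 higher (adjusted p = 0.0369) and CD27 0.21 higher (adjusted p = 0.0290). The count was 5 without replicate 1 at 500 nM and without replicate 2 or 3 at 2.5 μM. The call of PIK3CD was lost without any of the 6 libraries, that of BLK without any other than replicate 3 at 500 nM, and that of CD27 without replicate 1 or 3 at 500 nM or replicate 2 or 3 at 2.5 μM (adjusted p up to 0.182, 0.131 and 0.128). An equal sum of RPKM put the median of all genes at 0.16. Of the 39 genes 10 were then higher and 3 lower, beside 2567 of all genes called (92.6% of them higher). With this scaling MEF2C and PIK3CD, at -0.17 and -0.07, did not pass (adjusted p = 0.112 and 0.430). By median ratios 2 were higher and 6 lower, beside 541 of all genes called (39.4% of them higher). With median ratios BLK, at 0.18, did not pass (adjusted p = 0.0546).

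Other genes of the pathway were followed in a list of 65, of which 60 were tested in Ramos cells. At 6 h 24 of the 60 passed at 500 nM (8 higher, 16 lower) and 26 at 2.5 μM (9 higher, 17 lower), with median log2 fold changes of -0.05 and -0.02. Of all genes tested 23.6% passed at 500 nM (13.8% higher, 9.73% lower) and 27.9% at 2.5 μM (17.3% higher, 10.7% lower). The largest falls at 2.5 μM were those of FCRL2, an Fc receptor-like protein of B cells, by 1.29 (adjusted p = 0.000367), RAC2, a GTPase of blood cells, by 0.85 (adjusted p = 2.58e-05), and VAV3, an exchange factor for Rac GTPases, by 0.80 (adjusted p = 0.000117). The largest rises were those of the kinase AKT1, by 0.52 (adjusted p = 0.000722), of VAV2, by 0.51 (adjusted p = 0.00889), and of ITPR3, a calcium release channel, by 0.37 (adjusted p = 0.00235). At 24 h none passed at 500 nM in limma's test (2 at an unadjusted p under 0.05, beside 5.58% of all genes). At 2.5 μM 4 passed, all lower, where 4.61% of all genes passed (1.31% lower), with REL, an NF-kB subunit, at -0.38 (adjusted p = 0.00797) and RASGRP1, an activator of RAS, at -0.34 (adjusted p = 0.0282).

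A list of 20 germinal center and Burkitt lymphoma genes had 18 tested, of which 11 passed at 500 nM (6 higher, 5 lower) and 12 at 2.5 μM (6 higher, 6 lower) at 6 h, beside 23.6% and 27.9% of all genes tested. LMO2, a germinal center transcription cofactor, went from 15.0, 12.2 and 12.6 RPKM to 7.73, 6.50 and 6.30 at 500 nM and 4.58, 5.03 and 5.26 at 2.5 μM, and was at 15.8, 14.1 and 13.6 and 8.53, 8.81 and 8.12 at 24 h of the same doses. It was lower than in untreated cells by 0.91, 1.33 and, at 2.5 μM for 24 h, 0.61 on the log2 scale (adjusted p = 0.000572, 6.92e-05 and 0.0115). S1PR2, a receptor that keeps B cells in the germinal center, rose at 6 h by 0.71 and 0.94 (adjusted p = 0.000202 and 3.09e-05). At 2.5 μM for 24 h 4 of the 18 passed, 3 higher and 1 lower, beside 4.61% of all genes tested.

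HCT116 cells served as a contrast, with the members that were high enough to be tested in that line. CR2 is among them, though it was not tested in Ramos cells. Against untreated HCT116 cells, 7 of 16 tested genes passed at 2 μM for 6 h, all lower, where 47.3% of 14550 genes passed (15.5% higher, 31.8% lower). At 10 μM for 6 h 7 of 16 passed, all lower, where 30.0% of all genes passed (8.84% higher, 21.2% lower). Without replicate 3, the library that stood apart, 8 of 17 passed, all lower, where 51.2% of all genes passed (31.1% lower), and CD24, PIK3AP1 and SYK passed (adjusted p = 0.000131, 0.000595 and 0.0281). At 2 μM for 24 h 5 of 17 passed, 1 higher and 4 lower, where 27.3% of all genes passed (16.6% higher, 10.8% lower). At 10 μM for 24 h 6 of 18 passed, 1 higher and 5 lower, where 35.2% passed (19.5% higher, 15.7% lower). In share called, the members were below all genes at 2 μM for 6 h and 10 μM for 24 h. They were near all genes at 2 μM for 24 h. For 10 μM and 6 h they were above all genes with replicate 3 and below without it. The counts called are thus not read as a trait of the members. The 7 genes lower at 2 μM for 6 h were CD24 (-0.77), CR2 (-0.75), PIK3CD (-0.73), PTPN6 (-0.59), PIK3AP1 (-0.54), PLCG2 (-0.51) and SYK (-0.32), with a largest adjusted p of 0.0308. CD24, which epithelial cells also express, passed in all 4 treated HCT116 groups, with -0.77 and -0.62 at 2 μM and -0.84 and -0.96 at 10 μM (6 and 24 h, largest adjusted p = 0.00809). SYK and PIK3AP1 passed in all 4 groups as well, with 24 h values at 2 μM of -0.31 and -0.32. The calls of SYK were lost in each group without several single libraries (adjusted p up to 0.142), and so was that of PIK3AP1 at 2 μM for 24 h (up to 0.0868). CD40 was the gene that rose at 24 h, by 0.39 at 2 μM and 0.53 at 10 μM (adjusted p = 0.00542 and 0.000398), and MEF2C fell at 24 h, by 0.40 and 0.47 (adjusted p = 0.00809 and 0.000619). CD40 was at 0.24 at 2 μM with an equal sum of RPKM and did not pass (adjusted p = 0.0704). Beside the 7 genes of the 6 h comparison, the values in Ramos cells at 2.5 μM for 6 h were -1.29 for CD24, -0.32 for PIK3CD, -1.28 for PTPN6, -0.39 for PIK3AP1 and -0.39 for PLCG2, each lower than untreated as well, and -0.07 for SYK, which did not pass. The count at 10 μM for 6 h was 3 without untreated HCT116 replicate 2 or 3 and 4 without replicate 1, and that at 2 μM for 24 h was 3 without untreated replicate 1 or 3 or without treated replicate 1.

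**Figure D5:**
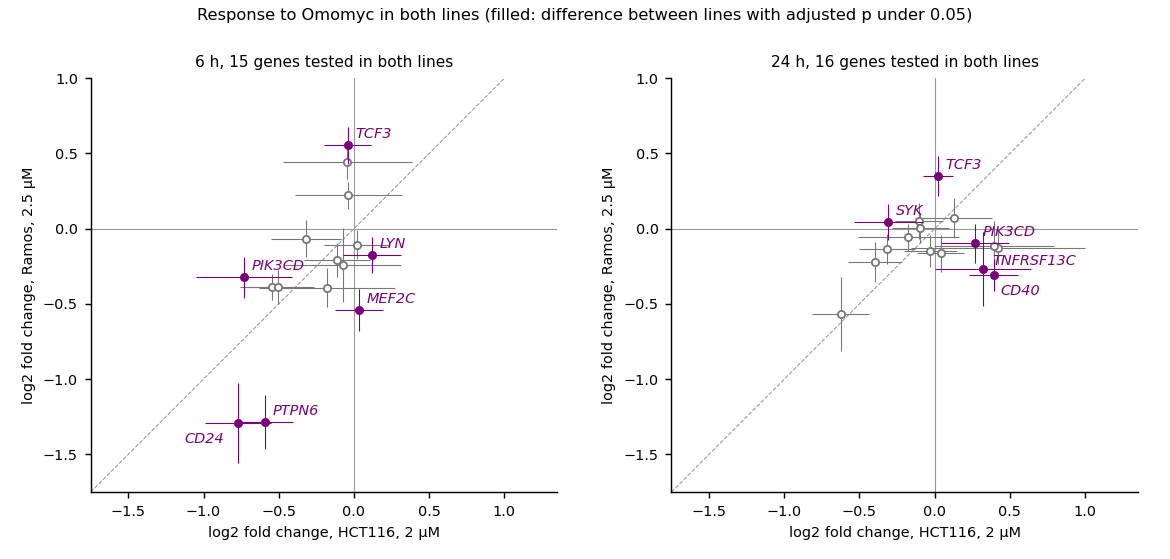
Log2 fold change against untreated cells in Ramos (2.5 μM) plotted over that in HCT116 (2 μM) for the 15 genes tested in both lines at 6 h (left) and the 16 at 24 h (right), with 95% intervals, zero lines and a dashed line of equality. Filled, named points are genes whose response differed between the lines with an adjusted p under 0.05.

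The difference of the responses, Ramos at 2.5 μM minus HCT116 at 2 μM, was tested as an interaction. At 6 h 15 of 40 genes passed, 9 higher and 6 lower in Ramos cells, where 40.6% of 15562 genes passed (28.4% higher, 12.2% lower). At 24 h 11 of 40 passed, 7 higher and 4 lower, where 16.3% of 15714 genes passed (9.51% higher, 6.81% lower). Of the called genes, 6 of the 15 and 5 of the 11 were tested in both lines. The others were too low to be tested in HCT116 cells or, for CR2, in Ramos cells. Their values largely restate the change in the line that expresses them, so the genes tested in both lines are given. Among the 15 such genes at 6 h, PTPN6 differed by -0.69 (adjusted p = 0.000678), MEF2C by -0.57 (adjusted p = 0.000417) and CD24 by -0.53 (adjusted p = 0.00800), each more negative in Ramos cells. TCF3 differed by 0.59 (adjusted p = 0.000349), with -0.04 in HCT116 cells, PIK3CD by 0.41 (adjusted p = 0.0469) and LYN by -0.30 (adjusted p = 0.0317). Scaled to an equal sum of RPKM, which put the median of all genes at 0.55 in place of 0.14, this contrast had 16 genes higher and 2 lower. Of all genes 9881 passed with that scaling, 94.6% of them higher. The differences of PTPN6, MEF2C and CD24 were -0.22, -0.10 and -0.06 and did not pass (adjusted p = 0.161, 0.382 and 0.730). That of LYN turned to 0.17 (adjusted p = 0.368). By median ratios 7 genes were higher and 8 lower, beside 5961 of all genes that passed (52.7% of them higher). With median ratios PIK3CD, at 0.28, did not pass (adjusted p = 0.140). The call of LYN was lost without Ramos untreated replicate 1 or 3, any Ramos 2.5 μM replicate, HCT116 untreated replicate 2 or HCT116 2 μM replicate 3, and that of PIK3CD without any library other than HCT116 2 μM replicate 1 (adjusted p up to 0.0712 and 0.102). At 24 h the difference was -0.70 for CD40 (adjusted p = 0.000669), which rose in HCT116 cells by 0.39 (adjusted p = 0.00542) and fell in Ramos cells. The same contrast at 24 h gave -0.59 for TNFRSF13C, -0.36 for PIK3CD, 0.35 for SYK and 0.33 for TCF3 (adjusted p = 0.0242, 0.0373, 0.0391 and 0.0147). Without any of 9 libraries (Ramos untreated replicate 1 or 2, Ramos 2.5 μM replicate 1, 2 or 3, HCT116 untreated replicate 1, 2 or 3 and HCT116 2 μM replicate 3) the count at 24 h was 4 to 7. With an equal sum of RPKM 15 genes were higher and 1 lower, and by median ratios 4 were higher and 5 lower. Of all genes 6397 passed with an equal sum (94.6% of them higher) and 2561 by median ratios (56.0% of them higher). TNFRSF13C and PIK3CD, at -0.30 and -0.02 with an equal sum, did not pass (adjusted p = 0.108 and 0.907). The reagent and the line, and the dose as titled, differ together in this contrast and cannot be told apart.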

How the data were processed

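RNA was extracted with RNeasy columns and sequenced from ribosome-depleted, stranded total RNA libraries (TruSeq Stranded Total RNA). The authors deposited 1 table of RPKM values per Ensembl gene and library (57992 genes, 30 libraries), and the submitters' processing notes name RSEM, with no version. The aligner, genome build and counting settings are not given in the sources used here. Read depth is unknown. RPKM summed to 783788 to 973736 per Ramos library and 593633 to 1051041 per HCT116 library, and 13483 to 13785 and 14340 to 15340 genes reached 0.5 RPKM. Groups were taken from the sample titles. The time tag of the libraries titled 24 h reads 4 h, and the titles were followed. The lower HCT116 dose is 2 μM in the titles, which were followed, and 2.5 μM in the study's methods.

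Symbols came from GENCODE 29, in which 57388 of the 57992 IDs were found. Values were taken as log2(RPKM + 0.5), and genes with a mean of at least 0.5 RPKM over the libraries of a fit were tested with limma 3.58.1 in R 4.3.3 (moderated test with a mean trend, 2 groups of 3 libraries, or 4 groups for the difference between lines), with Benjamini-Hochberg adjustment over all genes tested and a threshold of 0.05. The fit was tested on simulated data. Figures and summaries were made with Python 3.11.15, pandas 2.3.3 and matplotlib 3.10.9. An exact permutation test of 3 against 3 libraries cannot go below p = 0.1 and was not used. Alternatives were pseudocounts of 0.1 and 1, no filter or a minimum of 2 RPKM, scaling by median ratios or to an equal sum of RPKM, no mean trend, all 5 groups of a line in 1 fit, the replicate number as a block, a threshold of 0.01 and leaving out each library. Same-numbered Ramos libraries did not deviate together (correlations of -0.146 to 0.0508), so the block is an alternative only.

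The 40 genes and the lists of other pathway, germinal center, plasma cell and marker genes were chosen with earlier results of these data known. All 40 could be named, and from other lists up to 3 called genes with the largest rise and 3 with the largest fall per comparison. REL and RASGRP1 are such genes. Promoters were those of RefSeq (GRCh38.p14), for the called genes with the largest change at 2.5 μM and 6 h (CD24, PTPN6 and CD79B, the last without an entry), plus PIK3AP1 and MEF2B, which were chosen after their motifs were seen.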

Additional observations from a re-analysis of the deposited data

Results flagged for a closer look

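Several results were singled out because a test of a difference between times or lines passed its threshold. Between 24 h and 6 h of Omomyc in Ramos cells, limma called 26 of the 39 genes at 2.5 μM and 26 at 500 nM, beside 23.0% and 25.4% of all genes tested. The response of Ramos cells at 2.5 μM differed from that of HCT116 cells at 2 μM in 15 of 40 genes at 6 h and in 11 at 24 h, beside 40.6% and 16.3% of all genes tested, so the share at 6 h was below that of all genes. Of these, 6 and 5 were tested in both lines, and the others largely restate the change in Ramos cells or, for CR2, in HCT116 cells. Among genes tested in both lines, the difference of log2 fold changes at 6 h (Ramos minus HCT116) was -0.693 for PTPN6, -0.572 for MEF2C, -0.526 for CD24, -0.298 for LYN, 0.407 for PIK3CD and 0.595 for TCF3. At 24 h it was -0.700 for CD40, -0.589 for TNFRSF13C, -0.364 for PIK3CD, 0.330 for TCF3 and 0.353 for SYK. Scaled to an equal sum of RPKM, the 6 h differences of PTPN6, MEF2C and CD24 were -0.22, -0.10 and -0.06, and the 24 h differences of TNFRSF13C and PIK3CD were -0.30 and -0.02. None of the 5 passed (adjusted p = 0.161, 0.382, 0.730, 0.108 and 0.907), and LYN at 6 h turned to 0.17 (adjusted p = 0.368). By median ratios PIK3CD at 6 h was at 0.28 (adjusted p = 0.140). The delivery reagent and the line, and the dose as titled, cannot be told apart in these differences.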

How the results depend on the processing

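At 6 h against untreated Ramos cells, the count of 24 genes ranged from 17 to 25 at 500 nM and from 18 to 28 at 2.5 μM over the other settings, and from 19 to 24 and from 18 to 24 without 1 library. The 24 h against 6 h counts of 26 ranged from 18 to 27 over both doses and all settings. None of these settings turned the direction of a called gene. The counts at 2.5 μM for 24 h and between doses were less stable. Against untreated cells at 2.5 μM for 24 h, 8 genes became 2 with no filter, 19 with an equal sum of RPKM, 0 without the trend and 0 at an adjusted p under 0.01, and 0 to 12 without 1 library. Between doses at 6 h, 5 became 0 with no filter, 2 with an equal sum, 0 without the trend and 0 at 0.01, and 0 to 2 without 1 library. Between doses at 24 h, 8 became 3 with no filter, 13 with an equal sum, 0 without the trend and 5 at 0.01, and 5 to 7 without 1 library. In HCT116 cells, 7 genes at 10 μM for 6 h became 4 with no filter, 11 with an equal sum and 3 at 0.01 (3 to 8 without 1 library), 5 at 2 μM for 24 h became 3 at 0.01 and 2 with all 5 groups in 1 fit (3 to 4 without 1 library), and 6 at 10 μM for 24 h became 10 with an equal sum (4 to 5 without 1 library). The difference between lines at 24 h went from 11 to 6 with no filter and 2 at 0.01 (4 to 9 without 1 library). The value that reversed was the difference between lines for LYN at 6 h, from -0.30 to 0.17 with an equal sum of RPKM. The causes were not tested, other than that an equal sum moves every gene of a library alike. With an equal sum the count over all genes went from 627 to 5362 at 2.5 μM for 24 h against untreated Ramos cells. Between doses it went from 58 to 33 at 6 h and from 579 to 2567 at 24 h. In HCT116 cells it went from 4439 to 7235 at 10 μM for 6 h and from 5220 to 4900 at 10 μM for 24 h.

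In the fit with a replicate block, the count at 2.5 μM for 24 h was 5, that between doses at 6 h was 1 and the difference between lines at 24 h was 6, and at 6 h against untreated cells 22 genes passed at 500 nM and 20 at 2.5 μM. Same-numbered libraries had correlations of their deviations of -0.219 to 0.148, and the labels name nothing that they share. RPKM carry no read counts, which limits what can be said of low genes such as PRDM1, TNFRSF13B and CD24.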

Other observations

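A list of 14 genes of plasma cells, the antibody-secreting end stage of the B cell lineage, was followed as well, and 13 of them were tested in Ramos cells. It shares CD27, CD38, IRF4 and PRDM1 with the 40 genes. At 2.5 μM for 6 h 7 of the 13 were higher than in untreated cells and none was lower by limma's test (2 of the genes with negative values had an unadjusted p under 0.05), with a median log2 fold change of 0.16, where 27.9% of all genes tested passed (17.3% higher). The largest rises were those of JCHAIN, the joining chain of polymeric immunoglobulin, by 0.76 (SE 0.0576, adjusted p = 7.37e-05), CD27, and MZB1, a chaperone of immunoglobulin assembly, by 0.54 (SE 0.0520, adjusted p = 0.000206). At 500 nM for 6 h 5 were higher and 1, TNFRSF17, the receptor BCMA, was lower, by 0.22 (adjusted p = 0.0229), where 23.6% of all genes passed.

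JCHAIN was at 1199, 1304 and 1202 RPKM in untreated libraries, 2042, 2111 and 1903 at 500 nM and 2232, 2046 and 2017 at 2.5 μM for 6 h, and at 1138, 1244 and 1404 and 1446, 1389 and 1446 at 24 h of the same doses. Every 6 h library lay above every untreated one. At 2.5 μM for 24 h 5 of the 13 genes passed, all higher, with JCHAIN at 0.21 (adjusted p = 0.0444), where 4.61% of all genes passed (3.30% higher). At 500 nM for 24 h none passed, nor did any reach an unadjusted p under 0.05, beside 0.0146% and 5.58% of all genes tested. PRDM1, the factor that drives the plasma cell program, was at -0.44 and -0.46 at 6 h. Its level was low and it was called at neither dose. SDC1, the plasma cell surface marker CD138, was not tested because its mean was under 0.5 RPKM. XBP1, a factor of the secretory program, was at -0.09 and 0.16 at 6 h (adjusted p = 0.242 and 0.0456). XBP1 was named after its values were seen.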
